A study of Mus musculus with 7 samples.

Results

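The collagen chains are the genes whose platform symbol has the form Col, a number, a and a number, and 42 of the 19505 named genes on the array met this rule, each with 1 feature. They were compared in nucleus pulposus, the soft centre of each spinal disc, between mice that lack the lactate exporter MCT4 (gene Slc16a3) and wild-type mice. MCT4KO comprised 3 global knockout animals aged 14 months and WT comprised 4 animals aged 13 months, per the labels, and the effects of age and of genotype cannot be told apart. Tissue from the lumbar and caudal discs of 1 animal was pooled to 1 sample and hybridised to 1 Affymetrix array. The animals are described as littermates from heterozygous MCT4+/− parents after 10 generations of backcrossing to C57Bl/6N, while the series design gives MCT4KO as C57Bl/6N and WT as C57Bl/6. The sources used here do not give the sex of the animals.

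Collagens are secreted proteins in which 3 alpha chains wind into a triple helix. The chain genes fall into classes by the structure they build. Fibrillar collagens make the tensile fibrils, FACIT collagens sit on the surface of those fibrils, network collagens form sheets, beaded collagens form microfibrils around cells, and transmembrane collagens are anchored in the cell membrane. In the nucleus pulposus collagen II fibrils, which carry collagen IX and contain collagen XI, hold a hydrated proteoglycan gel, collagen VI surrounds the cells, collagen I belongs mainly to the surrounding annulus fibrosus and to bone, and collagen X marks hypertrophic cartilage cells.

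The members comprised 11 fibrillar, 8 FACIT, 9 network, 6 beaded, 4 transmembrane and 2 multiplexin chains, and 2 chains outside these classes, Col26a1 and Col28a1. Col7a1, Col12a1 and Col21a1 were not analysed here. Values are the deposited log2 expression values. The 5222 negative control features of the array centred on 5.99, with medians of 5.91 to 6.08 on the single arrays, and a chain was called at background in a group where every array of the group read at or below its own control median. By this measure 18 chains were at background in both groups, 1 in MCT4KO only (Col9a2), 1 in WT only (Col3a1) and 22 in neither. On all 7 arrays 16 chains read above the control median, and 3 of them, Col6a1, Col6a2 and Col6a3, read above 95% of the negative controls on every array.

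The knockout and the tissue were checked first. Slc16a3 read 5.02, 4.98 and 4.47 in MCT4KO 1 to 3, all under the control medians, against 13.55, 13.35, 13.61 and 13.40 in WT 1 to 4. Of 9 measured nucleus pulposus markers, such as the keratins Krt8 and Krt19 and the surface protein Cd24a, 7 read above the control median on every array, and the list mean was 12.23 to 12.39 in MCT4KO and 12.02 to 12.35 in WT. The mean of 8 neutrophil and marrow markers was 4.81 to 5.24 in MCT4KO against 5.82 to 9.98 in WT, highest in WT 1 (7.82) and WT 2 (9.98), and 5 of the 8 were at background in MCT4KO only. Correlations across genes between the arrays ran from 0.983 to 0.995, and genes are not independent replicates.

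The promoters of 3 chains with comparatively large differences between the groups and readings above the controls are shown because the differences described below concern these genes. They were chosen after their values were seen, and Col2a1 and Col22a1 are not shown because no promoter sequence was at hand for them. Each line gives the 250 bases before the RefSeq transcription start on mouse build GRCm38.p6, 5′ to 3′ on the gene's strand. Capitals mark the TATA box (TATAAA, searched on the gene's strand) and the GC box (GGGCGG, both strands). The SOX core ACAAT and the HIF core ACGTG were also searched on both strands, and these letters are not in the 3 windows. No searched motif overlaps another here.
Col11a1, chr3:114030290-114030539, plus strand: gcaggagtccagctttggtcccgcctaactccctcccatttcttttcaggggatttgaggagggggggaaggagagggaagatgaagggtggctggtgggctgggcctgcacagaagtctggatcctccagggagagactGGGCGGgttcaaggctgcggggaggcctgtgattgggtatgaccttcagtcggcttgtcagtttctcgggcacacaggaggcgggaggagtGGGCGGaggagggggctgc
Col10a1, chr10:34389731-34389980, plus strand: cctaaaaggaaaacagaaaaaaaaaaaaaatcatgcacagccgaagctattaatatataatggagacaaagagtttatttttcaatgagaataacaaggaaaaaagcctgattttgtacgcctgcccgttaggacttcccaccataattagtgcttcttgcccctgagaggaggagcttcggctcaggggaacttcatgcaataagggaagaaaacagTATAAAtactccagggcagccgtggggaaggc
Col6a3, chr1:90843972-90844221, minus strand: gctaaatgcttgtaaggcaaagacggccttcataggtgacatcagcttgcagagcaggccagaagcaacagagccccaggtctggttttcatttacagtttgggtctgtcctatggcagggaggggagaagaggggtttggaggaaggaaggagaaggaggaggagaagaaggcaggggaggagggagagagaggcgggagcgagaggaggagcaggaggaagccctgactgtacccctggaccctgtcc

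The Col10a1 window has 1 TATA box that begins 32 bases before the start, the Col11a1 window has 2 GC boxes, and the Col6a3 window has neither. RefSeq windows were matched for 34 of the 42 chains, in 37 windows. A GC box was in 56.8% of the collagen windows and in 32.7% of all 32851 windows of the same length, a TATA box in 13.5% and 7.59%, a HIF core in 13.5% and 16.6%, and a SOX core in 5.41% and 27.7%. A match describes letters and not a bound site.

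Across the family, collagen chains tended to read slightly above WT in MCT4KO, but no single chain passed the test. With limma over all genes, 0 of 42 chains were called higher and 0 lower at an adjusted p under 0.05 (Benjamini-Hochberg), where 0.118% of all genes were called higher, 0.472% lower and 0.590% in either direction. At an unadjusted p under 0.05, 5 chains (11.9%) were higher and 0 lower, against 5.76% and 6.90% of all genes. The 5 were Col2a1, Col11a1, Col3a1, Col22a1 and Col6a3. The change was above 0 in 34 of 42 chains (81.0%), against 53.0% of all genes, and the median log2 change was 0.17 over the chains and 0.017 over all genes. The 34 include chains at background in both groups. With 1 animal left out the count ran from 29 (without MCT4KO 1) to 37 (without MCT4KO 3). Chains read on the same animals are not independent replicates.

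The family means of the groups overlapped through 1 animal. The mean over the 42 chains was 6.95, 6.71 and 6.58 in MCT4KO 1, 2 and 3, against 6.58, 6.52, 6.38 and 6.62 in WT 1 to 4. MCT4KO 1 and 2 lay above every WT animal and MCT4KO 3 lay within the WT range. MCT4KO 1 read highest of its group in 20 of 42 chains, and MCT4KO 3 read lowest of its group in 22. In WT the counts were uneven too, with WT 4 highest in 19 chains and WT 3 lowest in 16. These counts include the chains at background. When readings under the control median of their array were set to that median, 19 of 42 chains were above 0 and the median was -0.0079, which is the difference of the groups' control medians and is fixed by construction for the 18 chains at background in both groups. Among the genes whose mean over all arrays exceeded the control median, 19 of 21 chains were above 0 with a median of 0.21, against a median of -0.049 over all such genes. Both are descriptions of these arrays. Groups did not overlap in 3 chains with MCT4KO higher (7.14% of chains, against 5.66% of all genes) and in 1 with MCT4KO lower (2.38%, against 6.37% of all genes).

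**Figure D1:**
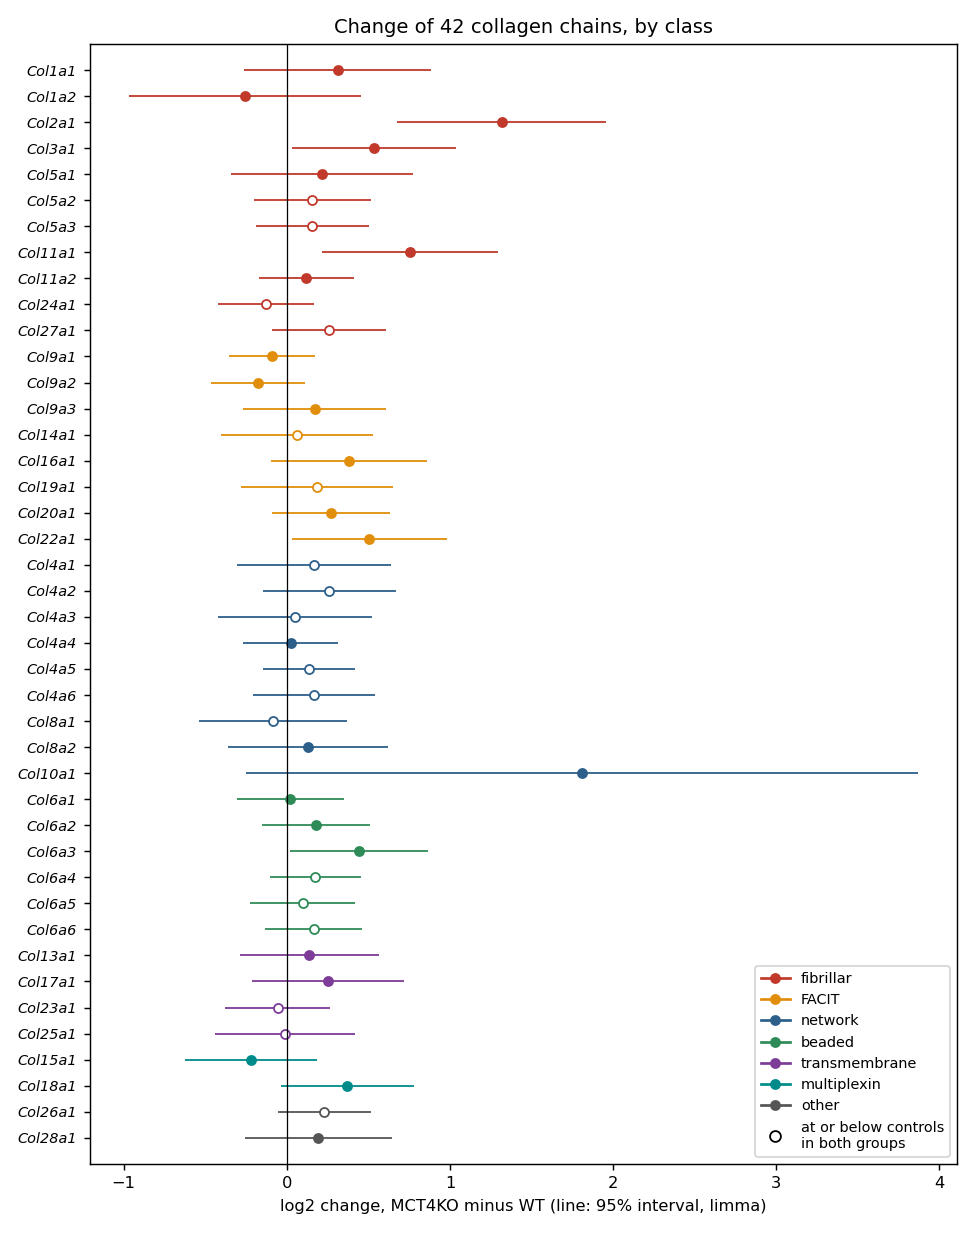
Log2 change of each collagen chain, MCT4KO minus WT, with its 95% interval from limma; rows are grouped and coloured by class and open circles mark chains at background in both groups. All points but Col2a1, Col11a1 and Col10a1, which stand furthest to the right, lie between -0.25 and 0.54, and 34 of 42 are above 0.

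Among the fibrillar chains, Col2a1 and Col11a1 had the smallest p. Col2a1 encodes the chain of collagen II, the main fibril of cartilage and nucleus pulposus. It read 10.08, 9.22 and 8.85 in MCT4KO 1, 2 and 3, against 8.29, 8.10, 7.58 and 8.30 in WT 1 to 4. All MCT4KO animals lay above all WT animals, with MCT4KO 1 the highest. The mean was 9.38 ± 0.629 in MCT4KO (SD, n = 3) and 8.07 ± 0.339 in WT (SD, n = 4), a log2 change of 1.32 ± 0.286 (SE; 95% interval 0.68 to 1.96; limma adjusted p = 0.0884), or 2.49-fold on the deposited scale. This misses the threshold of 0.05, and it did so under all 16 alternative settings run, with adjusted p from 0.0674 to 0.253 and changes from 0.97 to 1.58. Leaving out WT 1 and WT 2, whose neutrophil and marrow markers were highest, gave a change of 1.44 (adjusted p = 0.253). The feature read above 90.5% to 95.1% of negative controls in MCT4KO and 78.4% to 87.7% in WT. In bulk tissue a different share of cells and a different amount of RNA per cell cannot be told apart.

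Col11a1 encodes a chain of collagen XI, which sits inside collagen II fibrils and limits their width. It read 10.69, 10.61 and 9.72 in MCT4KO 1 to 3, against 9.38, 9.61, 9.45 and 9.90 in WT 1 to 4. MCT4KO 1 and 2 lay above all WT animals, while MCT4KO 3 lay inside the WT range, so the groups overlapped. The log2 change was 0.76 ± 0.241 (SE; 95% interval 0.22 to 1.30; limma adjusted p = 0.250). Without MCT4KO 3 it was 1.07 (adjusted p = 0.0799), and without MCT4KO 1 it was 0.58 (adjusted p = 0.528). Its partner Col11a2 had a difference of 0.12 (95% interval -0.17 to 0.41; adjusted p = 0.736), with 7.95 ± 0.119 in MCT4KO and 7.83 ± 0.105 in WT (SD, n = 3 and 4). The third chain of collagen XI is a product of Col2a1.

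Markers of cartilage cells, which also make collagens II and XI, were read on the same arrays. Of 11 end plate and hyaline cartilage markers, 5 were above 0 and 6 below, where 53.0% of all genes were above 0. Of these markers 1 was called lower and none higher, against 0.472% and 0.118% of all genes. So few calls are no result about the list. The list mean was 9.82, 8.72 and 8.24 in MCT4KO 1 to 3 against 9.03 to 9.48 in WT. The called gene was Snorc, a cartilage membrane proteoglycan, at 9.96, 10.34 and 10.68 in MCT4KO against 11.39 to 12.25 in WT (log2 change -1.53 ± 0.227, limma adjusted p = 0.0265). Matn1, Matn3, Epyc and Ihh, other defining markers of cartilage, were at background in both groups. Sox9, the factor that drives Col2a1 and Col11a2 in cartilage, read 16.98 to 17.36 in MCT4KO and 16.47 to 17.23 in WT, a change of 0.33 (adjusted p = 0.515). The part of cartilage cells in the collagen values was not tested.

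**Figure D2:**
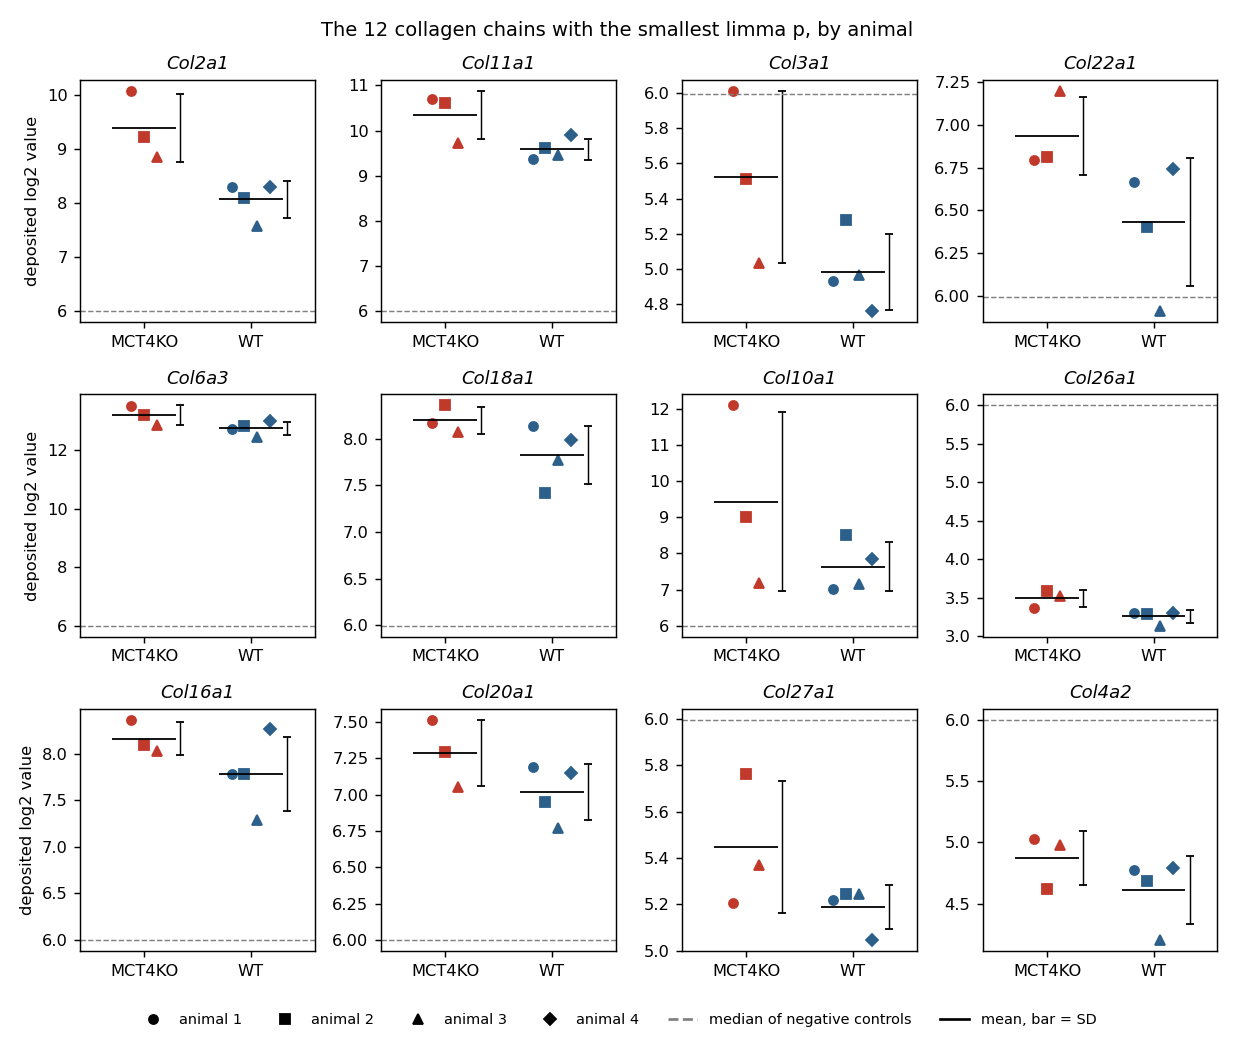
Deposited log2 value of the 12 collagen chains with the smallest limma p in each MCT4KO and WT animal; symbols number the animals, the horizontal line is the mean, the bar beside it the SD (n = 3 and 4), and the dashed line the median of the arrays' negative control medians. Col2a1 separates the groups, from 8.85 up in MCT4KO and up to 8.30 in WT, and Col10a1 has 1 high animal at 12.11.

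The chains of collagen I, the fibril of annulus, tendon and bone, gave changes of opposite sign. Col1a1 read 9.62, 9.64 and 9.26 in MCT4KO 1 to 3, against 9.69, 9.39, 8.49 and 9.23 in WT 1 to 4. The groups overlapped, and the WT range was widened downwards by WT 3. Its log2 change was 0.31 (95% interval -0.26 to 0.89; adjusted p = 0.641). It was 0.073 without WT 3, 0.47 without WT 1 and 0.65 without both WT 1 and WT 2. Col1a2, its partner chain, read 6.03 to 7.26 in MCT4KO and 6.39 to 7.37 in WT, a change of -0.25 (95% interval -0.97 to 0.46; adjusted p = 0.771). These intervals overlap and include 0 for both chains. Of 9 osteoblast and osteocyte markers 7 were at background in both groups, and their list mean was 4.90 to 5.45 in MCT4KO and 5.31 to 5.73 in WT. Of 8 annulus and tendon markers 3 were at background in both groups, and their mean was 7.49 to 7.69 in MCT4KO and 7.47 to 7.62 in WT. The part of those cells in the collagen I values was not tested.

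The remaining fibrillar chains read low. Col3a1, the chain of collagen III in pliable tissues, read 6.01, 5.51 and 5.04 in MCT4KO 1 to 3, against 4.93, 5.28, 4.97 and 4.76 in WT 1 to 4. MCT4KO 1 was the only animal above its control median. The log2 change was 0.54 (adjusted p = 0.368), and it was -0.0014 once low readings were set to the control medians, so it gives no size of change. Col27a1, a cartilage chain, read 5.21, 5.76 and 5.37 in MCT4KO against 5.22, 5.24, 5.24 and 5.04 in WT, at background in both groups (change 0.26, adjusted p = 0.515). Among the chains of collagen V, which regulates the width of collagen I fibrils, Col5a1 averaged 6.55 ± 0.0628 in MCT4KO and 6.33 ± 0.519 in WT (SD, n = 3 and 4; change 0.21, adjusted p = 0.753), whereas Col5a2 and Col5a3 were at background in both groups. Col24a1 was also at background in both groups. Over the 11 fibrillar chains the median change was 0.21, with 9 above 0 and 4 at background in both groups, and it was 0.14 without WT 3.

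In the FACIT class, Col22a1 was the chain with the smallest p. It encodes a collagen of tissue junctions such as the muscle to tendon border. It read 6.79, 6.81 and 7.20 in MCT4KO 1 to 3, against 6.67, 6.40, 5.91 and 6.74 in WT 1 to 4. The groups did not overlap, but the lowest MCT4KO animal and the highest WT animal were almost level. The change was 0.50 ± 0.212 (SE; 95% interval 0.03 to 0.98; limma adjusted p = 0.370). WT 3 read under its control median. The change was 0.33 without WT 3 (limma adjusted p = 0.551) and 0.61 without WT 4 (limma adjusted p = 0.353). Muscle markers, of which 2 of 6 were at background in both groups, had a list mean of 5.98 to 6.61 in MCT4KO and 5.77 to 6.53 in WT, and their part in the Col22a1 values was not tested.

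Collagen IX, the FACIT partner of collagen II, gave small changes of mixed sign. Col9a1 read 5.97, 5.97 and 5.84 in MCT4KO 1 to 3, against 5.99, 6.06, 6.00 and 6.02 in WT 1 to 4. The groups did not overlap, but all values lie close to the control medians, above 47.1% to 50.1% of the negative controls in MCT4KO and 49.0% to 51.8% in WT. The change was -0.09 (95% interval -0.35 to 0.18; adjusted p = 0.786). Col9a2 was at background in MCT4KO and averaged 5.82 ± 0.157 there, against 5.99 ± 0.0503 in WT (SD, n = 3 and 4; change -0.17, adjusted p = 0.601). Col9a3 read well above the controls, at 8.87, 8.50 and 8.25 in MCT4KO 1 to 3 against 8.24, 8.09, 8.46 and 8.70 in WT 1 to 4, with overlapping groups and a change of 0.17 (95% interval -0.27 to 0.61; adjusted p = 0.750).

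Col16a1 and Col20a1 were the other FACIT chains above the controls on every array. Col16a1, a minor collagen of fibroblasts and cartilage, read 8.36, 8.09 and 8.03 in MCT4KO against 7.78, 7.78, 7.29 and 8.27 in WT, and the groups overlapped through WT 4 (change 0.38, 95% interval -0.10 to 0.86; adjusted p = 0.483). Col20a1 read 7.51, 7.29 and 7.05 in MCT4KO against 7.19, 6.95, 6.77 and 7.15 in WT (change 0.27, adjusted p = 0.511). Here too MCT4KO 3 lay inside the WT range. Col14a1 and Col19a1 were at background in both groups. The median over the 8 FACIT chains was 0.18, with 6 above 0, and it was 0.04 without MCT4KO 1 and 0.31 without WT 1 and WT 2.

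The network class held the largest change of the family, and it rested on 1 animal. Col10a1 encodes the chain of collagen X, made by hypertrophic chondrocytes before cartilage turns to bone. It read 12.11, 9.02 and 7.18 in MCT4KO 1, 2 and 3, against 7.02, 8.50, 7.16 and 7.83 in WT 1 to 4. MCT4KO 1 was far above all other animals, MCT4KO 2 just above the highest WT animal, and MCT4KO 3 among the lowest of both groups. The SD was 2.49 in MCT4KO (n = 3), compared with 0.681 in WT (n = 4), and the next largest SD among the 42 chains in MCT4KO was 0.629, in Col2a1. The log2 change of Col10a1 was 1.81 ± 0.920 (SE; 95% interval -0.25 to 3.87; limma adjusted p = 0.452). Without MCT4KO 1 it was 0.47 (adjusted p = 0.823), and without MCT4KO 3 it was 2.94 (adjusted p = 0.186).

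The same animal was high in several cartilage genes, while in others it read low along with other MCT4KO animals. Comp, a pentameric protein of cartilage and tendon matrix, read 11.58, 8.04 and 6.35 in MCT4KO 1 to 3, against 7.20, 9.36, 8.23 and 9.19 in WT 1 to 4. Chad, a leucine-rich cartilage matrix protein, read 14.29, 9.93 and 8.56 in MCT4KO 1 to 3, against 10.54, 13.26, 11.12 and 11.87 in WT 1 to 4. Cnmd, the anti-angiogenic chondromodulin, read 9.45, 5.66 and 5.26 in MCT4KO 1 to 3, against 7.19, 6.98, 6.77 and 8.55 in WT 1 to 4. In each of the 3 genes MCT4KO 1 was the highest of 7 animals and MCT4KO 3 the lowest. These genes were picked after their values were seen, none was called (limma adjusted p from 0.819 to 0.960), and their part in the Col10a1 values was not tested. Other cartilage markers went the other way, with MCT4KO 1 below every WT animal. Snorc read 9.96 in MCT4KO 1 against 11.39 to 12.25 in WT. Ucma read 10.36 against 10.88 to 11.61, and Hapln1 14.89 against 14.96 to 15.79. Ihh, a signal of prehypertrophic cartilage, was at background in both groups. Ibsp, a bone sialoprotein that hypertrophic cartilage also makes, read 8.11, 9.65 and 7.43 in MCT4KO 1 to 3, against 10.95, 9.89, 9.75 and 10.74 in WT 1 to 4 (change -1.94 ± 0.485, limma adjusted p = 0.140).

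**Figure D3:**
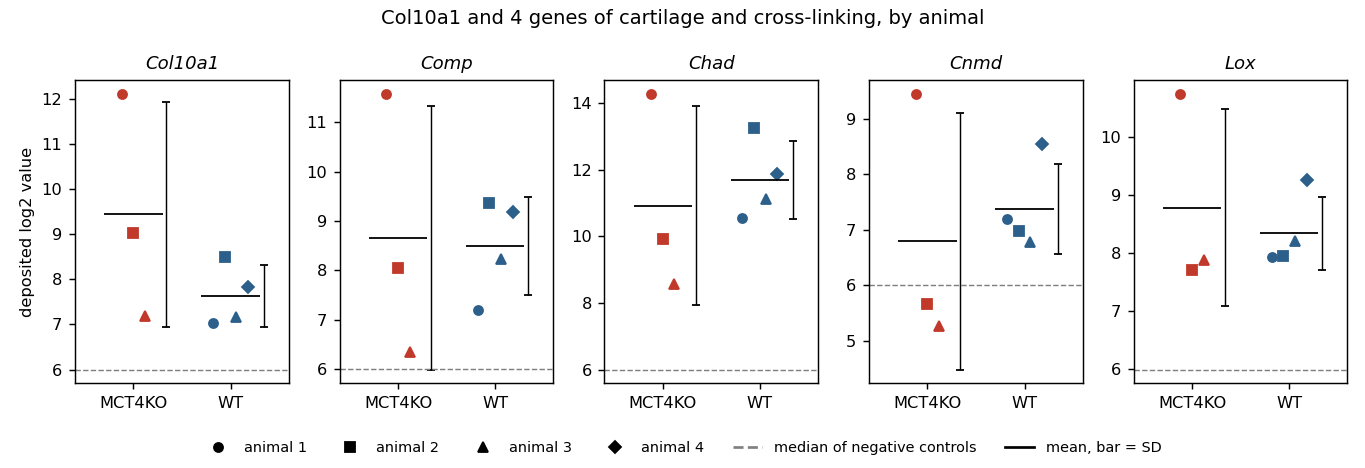
Deposited log2 value of Col10a1, of the cartilage genes Comp, Chad and Cnmd and of the cross-linking enzyme gene Lox in each MCT4KO and WT animal; the horizontal line is the mean, the bar the SD (n = 3 and 4) and the dashed line the median of the arrays' negative control medians. MCT4KO 1 (red circle) is the highest animal in all 5 panels. The genes beside Col10a1 were picked after their values were seen. Snorc, Ucma, Hapln1 and Ibsp, where MCT4KO 1 read below every WT animal, are not shown.

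Basement membrane collagen IV was near or below the controls. Of its 6 chains, Col4a1, Col4a2, Col4a3, Col4a5 and Col4a6 were at background in both groups, and Col4a4 averaged 6.06 in MCT4KO and 6.04 in WT, on the control median. Col4a2 had the smallest p of the 6, with 5.03, 4.62 and 4.98 in MCT4KO 1 to 3, against 4.78, 4.69, 4.20 and 4.79 in WT 1 to 4 (change 0.26, adjusted p = 0.579). Endothelial markers, whose cells lay down collagen IV, were likewise low, with 6 of 7 at background in both groups. Of the chains of collagen VIII, Col8a1 was at background in both groups. Col8a2 averaged 8.40 ± 0.257 in MCT4KO and 8.27 ± 0.385 in WT (SD, n = 3 and 4; change 0.13, 95% interval -0.36 to 0.62; adjusted p = 0.837). The median over the 9 network chains was 0.14, with 8 above 0 and 6 at background in both groups. It was 0.030 without WT 2, 0.21 without WT 1 and 0.081 without both.

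Collagen VI, the pericellular microfibril, gave readings far above the controls, and the 3 main chains gave changes from 0.02 to 0.44. Col6a1 read 13.78, 13.80 and 13.68 in MCT4KO 1 to 3, against 13.71, 13.52, 13.67 and 14.02 in WT 1 to 4. MCT4KO animals lay within the WT range, and the change was 0.02 (95% interval -0.31 to 0.35; adjusted p = 0.963), so that the interval leaves out a change of 0.5 in either direction. Col6a2 averaged 13.36 ± 0.161 in MCT4KO and 13.18 ± 0.173 in WT (SD, n = 3 and 4; change 0.18, 95% interval -0.15 to 0.51; adjusted p = 0.642). Col6a3, the largest chain of the trimer, read 13.53, 13.21 and 12.86 in MCT4KO 1 to 3, against 12.73, 12.83, 12.47 and 13.00 in WT 1 to 4. MCT4KO 1 and 2 were above all WT animals, and MCT4KO 3 was within the WT range. The change was 0.44 ± 0.189 (SE; 95% interval 0.02 to 0.87; limma adjusted p = 0.377), and it was 0.28 without MCT4KO 1.

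**Figure D4:**
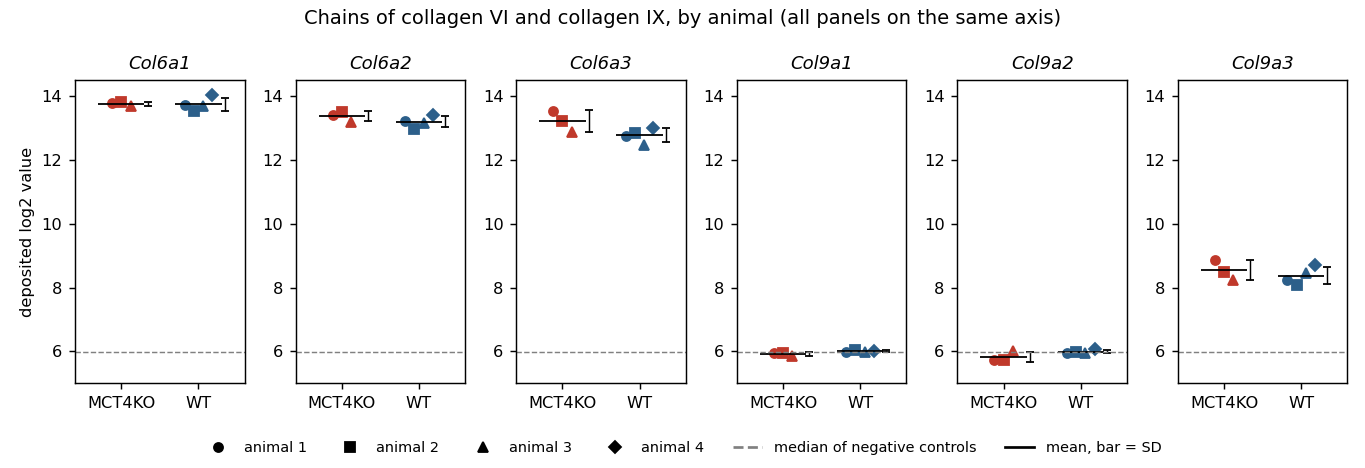
Deposited log2 value of the main chains of collagen VI and the chains of collagen IX in each MCT4KO and WT animal, all panels on the same axis; the horizontal line is the mean, the bar the SD (n = 3 and 4) and the dashed line the median of the arrays' negative control medians. Col6a1, Col6a2 and Col6a3 read from 12.47 to 14.02, Col9a1 and Col9a2 lie near the control line, and the groups overlap in every panel except Col9a1.

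Col6a4, Col6a5 and Col6a6, which can stand in for Col6a3 in the collagen VI trimer, were at background in both groups, so the beaded class rests on 3 measured chains. The median over its 6 chains was 0.17 with 6 above 0, and 0.0067 once low readings were set to the control medians.

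Transmembrane and multiplexin collagens showed no called change. Col13a1, a chain of cell junctions, averaged 6.48 ± 0.0376 in MCT4KO and 6.34 ± 0.355 in WT, and Col17a1, a hemidesmosome chain, 6.24 ± 0.446 in MCT4KO and 5.99 ± 0.183 in WT (SD, n = 3 and 4; changes 0.14 and 0.25, adjusted p = 0.796 and 0.641). Col23a1 and Col25a1 were at background in both groups. Col18a1, the multiplexin from which endostatin is cut, read 8.17, 8.36 and 8.07 in MCT4KO 1 to 3, against 8.13, 7.42, 7.77 and 7.98 in WT 1 to 4. The groups overlapped only through WT 1, and the change was 0.37 ± 0.182 (SE; 95% interval -0.04 to 0.78; limma adjusted p = 0.437). Col15a1, the other multiplexin, averaged 6.89 ± 0.240 in MCT4KO and 7.11 ± 0.264 in WT (SD, n = 3 and 4; change -0.22, adjusted p = 0.640). Of the chains outside the classes, Col26a1 read 3.37, 3.59 and 3.52 in MCT4KO against 3.31, 3.30, 3.14 and 3.31 in WT. The groups did not overlap, but no value was above more than 5.8% of the negative controls, at background in both groups, so this gives no size of change. Col28a1 averaged 7.40 ± 0.397 in MCT4KO and 7.20 ± 0.213 in WT (SD, n = 3 and 4; change 0.19, adjusted p = 0.720).

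The machinery that modifies, secretes and cross-links collagen was measured on the same arrays. After secretion, procollagen loses its end propeptides, and PCOLCE proteins speed the removal at the carboxyl end. Pcolce2, one of these enhancers, read higher in MCT4KO, with 14.77, 14.89 and 15.18 in MCT4KO 1 to 3 against 14.15, 14.03, 14.09 and 14.22 in WT 1 to 4. The groups were well apart, and the change was 0.83 ± 0.140 (SE; limma adjusted p = 0.0407). It was the 1 gene called of 14 measured genes of procollagen secretion and propeptide removal, whose median change was 0.036, with 8 above 0. Of all genes, 0.118% were called higher and 0.472% lower, and 1 call is no result about the list. The adjusted p lies close to the threshold of 0.05, and Pcolce2 was not followed in the alternative settings. Pcolce, its relative, averaged 12.64 in MCT4KO and 12.38 in WT (adjusted p = 0.627).

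Of 15 genes of collagen modification and folding 9 were above 0 and 0 were called by limma. Their median change was 0.14, and an unadjusted p under 0.05 was reached by 3 genes, all higher in MCT4KO, where 5.76% of all genes were higher and 6.90% lower at this p. P3h2, a prolyl 3-hydroxylase, averaged 14.56 ± 0.0525 in MCT4KO and 14.03 ± 0.220 in WT without overlap (SD, n = 3 and 4; change 0.52, adjusted p = 0.194). Plod1, a lysyl hydroxylase, and P4ha2, a subunit of prolyl 4-hydroxylase, had differences of 0.55 and 0.54 (adjusted p = 0.338 and 0.373). All 4 measured cross-linking enzymes were above 0, with a median of 0.52, and 0 were called by limma, while 2 were higher at an unadjusted p under 0.05. Of the 4, Loxl1 was at background in both groups, so its change gives no size. Of all genes, 53.0% were above 0 and 5.76% were higher at this p, and 4 genes are too few to set against these shares. Among them Loxl4 averaged 9.58 ± 0.320 in MCT4KO and 8.98 ± 0.263 in WT without overlap (SD, n = 3 and 4; adjusted p = 0.260). Lox read 10.75, 7.72 and 7.89 in MCT4KO 1 to 3, against 7.94, 7.96, 8.21 and 9.27 in WT 1 to 4 (adjusted p = 0.816). MCT4KO 1 was again the highest animal, while MCT4KO 2 and 3 lay below every WT animal. The change of Lox above 0 thus rested on MCT4KO 1.

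Receptors, collagenases and regulators of collagen genes held no called gene. Of 8 receptor and uptake genes 4 were at background in both groups and the median was -0.034. Ddr2, a receptor tyrosine kinase that binds fibrillar collagen, read 14.83, 15.72 and 15.22 in MCT4KO against 15.71 to 16.19 in WT (change -0.69, limma adjusted p = 0.221). Of 8 collagenases and matrix proteases 4 were at background in both groups and the median was -0.019. Of 7 transcription factors of collagen genes 4 were above 0 and the median was 0.048. At an unadjusted p under 0.05 these 3 lists held 0 higher and 2 lower genes, Ddr2 and Sox6, where 5.76% of all genes were higher and 6.90% lower, and so few genes are no result about the lists.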

How the data were processed

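Nucleus pulposus RNA was labelled from 100 ng and hybridised to 1 Affymetrix array per animal, per the labels' protocols. The authors deposited 1 log2 value per feature and array, and the submitters' processing notes name Affymetrix Expression Console 1.4.1. How background, normalization and summarisation were handled is not stated there. The log2 scale is read from the values, and the highest, 19.3 to 19.4 per array, exceed the log2 of a scanner reading, so fold changes are on the deposited scale.

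Of 22206 transcript clusters 19572 had 1 gene symbol and 2634 none here. Symbols were updated by gene identifier in the RefSeq table of GRCm38.p6 (19572 matched), and the feature with the highest mean was kept per gene. limma 3.58.1 in R 4.3.3 (lmFit, eBayes, no covariate, 5 residual and 4.66 prior degrees of freedom) was run on all 19505 genes, with Benjamini-Hochberg adjustment and a threshold of 0.05. The number of animals limits precision, and the median SE was 0.167. On simulated arrays (MCT4KO against WT, 19505 genes, 20 runs) 5.97% of genes changed by 0.5 were recovered, 79% by 1 and 99.6% by 2, and unchanged genes made up 7.21% of the calls. Each run changed 200 randomly drawn genes and used independent normal noise with limma's SD estimate for each gene. The rates are averages over such genes and not the rate for a gene with a large SE, such as Col10a1 (0.920).

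Members, classes and gene lists were chosen with earlier results of these data known. All members are named, with values on every array for the 12 with the smallest p and for Col2a1, Col9a1, Col10a1, Col1a1 and Col6a1. Alternatives were quantile normalization, median centring, only genes above the control median, low readings set to the control medians, averaged features, eBayes with trend and robust, array weights, the animal number as a block, and leaving out animals.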

Additional observations from a re-analysis of the deposited data

Results flagged for a closer look

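In the WT group 1 animal stood apart from the other 3 by Dixon's 95% criterion for 4 values in 5 of 42 collagen chains, 11.9%, where chance gives about 1 in 20. Col27a1 read 5.04 in WT 4, with the gap to the nearest animal at 0.883 of the range. Col4a4 read 5.97 in WT 3 (0.840), Col17a1 read 5.72 in WT 4 (0.838), Col23a1 read 5.26 in WT 2 (0.855) and Col26a1 read 3.14 in WT 3 (0.925). Each of these values lies below the control median of its array. The 3 MCT4KO animals are too few for the same check.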

How the results depend on the processing

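No collagen chain was called in any of the 16 alternative settings, and 17 of the 42 chains kept their sign in every setting that tested them. Col24a1, Col9a1 and Col9a2, among the 17, were tested in 15 settings. The number of all genes called was 115, with 26 once low readings were set to the control medians, 6 with the replicate block, 16 without WT 1 and WT 2, and 15 to 64 without 1 animal. The lowest of these counts came without MCT4KO 3 (15), without WT 3 (18) and without WT 4 (25), and it was 35, 40, 61 and 64 without MCT4KO 1, WT 2, WT 1 and MCT4KO 2. Calls were 23 higher and 92 lower, and 26 higher and 53 lower with quantile normalization. Same-numbered animals correlated at -0.13, 0.016 and 0.050 over all genes in their deviations from the group means, and at -0.31, -0.12 and 0.27 over the collagen chains. These values show no common pairing by number, but 3 correlations cannot exclude one. WT 4 has no partner and adds nothing to the block, which changed no collagen call (Col2a1 1.39, adjusted p = 0.0806). Once low readings were set to the control medians, the median was -0.0079 over all chains, -0.0014 over fibrillar and 0.0067 over beaded chains. The FACIT median was 0.33 and the transmembrane median 0.19 among genes above the control median, which tests 21 of 42 chains. The FACIT median was 0.31 without WT 1 and WT 2, and 0.04 to 0.25 without 1 animal.

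Of the 42 chains 25 changed sign in at least 1 setting. Once low readings were set to the control medians, Col5a2, Col5a3, Col27a1, Col14a1, Col19a1, Col4a1, Col4a2, Col4a3, Col4a5, Col4a6, Col6a4, Col6a5, Col6a6 and Col26a1 came to -0.0079 by construction, and Col3a1 to -0.0014. Quantile normalization gave -0.013 for Col14a1, -0.031 for Col4a3 and -0.0029 for Col4a4. Array weights gave -0.015 for Col4a3. The replicate block gave 0.063 for Col8a1 and 0.058 for Col25a1. Without 1 animal, or without WT 1 and WT 2 together, the changes ran from -0.038 to 0.32 for Col9a3, from -0.60 to 0.015 for Col1a2, from -0.011 to 0.31 for Col5a2, from -0.048 to 0.29 for Col14a1, from -0.21 to 0.27 for Col4a3, from -0.062 to 0.11 for Col4a4, from -0.21 to 0.063 for Col8a1 and from -0.016 to 0.26 for Col8a2. They ran from -0.095 to 0.12 for Col6a1, from -0.0066 to 0.26 for Col13a1, from -0.18 to 0.042 for Col23a1, from -0.16 to 0.21 for Col25a1 and from -0.036 to 0.32 for Col28a1. The cause was not tested. The 18 chains at background in both groups set the limit of what the array resolves here.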

Other observations

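Chains of basement membrane collagen lie in head-to-head gene pairs that share the stretch between their starts, and 2 pairs were examined here. The RefSeq starts of Col4a1 and Col4a2 on GRCm38.p6 are 21 bases apart and those of Col4a5 and Col4a6 1343 bases apart. The changes within a pair were 0.17 and 0.26 for Col4a1 and Col4a2, and 0.14 and 0.17 for Col4a5 and Col4a6, all at background in both groups, so they give no size of change. The distance between the starts of Col4a3 and Col4a4 was not measured, and their changes were 0.048 and 0.024.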
